A study of Mus musculus with 2 samples.

Results

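The genes described here encode the voltage-gated, leak and related ion channels of mouse cortex and their auxiliary subunits. They were chosen by name alone, as every gene of the deposited site list whose symbol places it among the Kcn potassium channel, Scn sodium channel, Cacna, Cacnb and Cacng calcium channel, Hcn or Clcn genes. Kcnj10, a glial potassium channel gene, and the noncoding RNA gene Kcnq1ot1 were left out by the rule. This gave 44 genes with 111 sites, out of 6929 genes with 17755 sites in the list (0.64% and 0.63%). The name rule takes no account of the cell type in which a channel is used, and several members are best known from glia or epithelia.

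The list comes from 2 libraries of a single group, with no untreated or editor-free group. NeuN-stained, flow-sorted nuclei of mouse cortex were used, from mice of the genotype APOBEC1-YTH given tamoxifen at 20 mg/kg each 24 hours for 5 days from 10 weeks of age, with collection 7 days after the last dose and nuclei fixed in 50% ethanol before staining. The promoter or recombinase that drives the editor, the sex of the mice and the number of animals behind each library are not stated in the labels. APOBEC1-YTH joins the cytidine deaminase APOBEC1 to the YTH domain, which binds N6-methyladenosine (m6A), so that cytidines beside a methylated adenosine are converted to uridine. The editing level of a site is the share of its reads that carry the conversion, and the list gives 1 level per site for both libraries together, from 1% upwards. No coverage is in the list, so the depth is unknown and no error between libraries can be given. A high level may rest on few reads, which allow only a few values. The same level recurred in several genes, such as 16.67% in Cacna1b, Clcn7, Kcnh7 and Kcnq5, and the depth behind these sites was not tested. Every SD below is a spread across sites or genes, and no test was made between channel genes and other genes. A gene without a site may be unmethylated, little transcribed or too thinly covered, and these cannot be told apart.

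Voltage-gated channels open when the membrane depolarises. Sodium channels carry the rising phase of the action potential, potassium channels repolarise the cell, and calcium channels couple firing to transmitter release and gene expression. K2P channels pass the background potassium leak that holds the resting potential, HCN channels open on hyperpolarisation, and CLC proteins are chloride channels or, inside endosomes and lysosomes, exchangers of chloride for protons. m6A marks messenger RNAs most densely around the stop codon and in the 3′ untranslated region, where it is known to influence RNA stability, localisation and translation.

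The sort was set against lists of known markers of each cell type, chosen with earlier results of these data known. Over all protein-coding genes 28.3% had a site. Sites were present in 5 of 10 neuronal markers (15 sites), 7 of 10 astrocyte markers (184 sites), 8 of 10 oligodendrocyte markers (55 sites), 5 of 10 microglial markers (22 sites) and 8 of 10 endothelial and pericyte markers (60 sites). Rbfox3, which encodes NeuN, had 0 sites. Glial and vascular genes thus carried sites in the same list, and the part of their cells' RNA in the channel values was not tested.

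The coordinates of the list were checked against RefSeq sequence around transcription starts (GRCm38.p6, which shares its chromosome sequence with mm10). Of all listed sites, 255 fell in such a window, and 255 of these 255 were a cytidine on the listed strand. None of the channel sites lay in those windows, 0 of 111. For 4 channel genes an edited cytidine lay shortly after an annotated start, and the transcribed bases 21 to 50 from that start are shown because they are the sequence nearest to any channel site in the files used here. They are written 5′ to 3′ in the direction of the gene. Capitals mark GGAC, a core form of the m6A consensus, or its reverse complement GTCC, which is GGAC on the opposite strand.

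Clcn6, chr4:148038764-148038793, minus strand: GTCCggagcggcagcaaaggaggaagatgg
Kcnj16, chr11:110997507-110997536, plus strand: aacaagaagagcgcagagaagagatcatga
Cacnb1, chr11:98022578-98022607, minus strand: agagcacagcgcgagccgggagggcaagca
Clcn7, chr17:25133411-25133440, plus strand: ggcgcgggtcacgggaatgctgccggtctg

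GGAC on the transcribed strand was in 0 of the 4 stretches, and in 11.7% of the same 30 bases over all 32851 start windows. On the opposite strand it was in the Clcn6 stretch alone of the 4, and in 10.5% of all windows. The edited cytidine of Clcn6 is base 58 from the start, 8 nt past the last base shown. That of Kcnj16 is base 94, that of Cacnb1 base 107 and that of Clcn7 base 122. All 4 of these sites were edited at low levels, 1.74% in Clcn6, 1.39% in Kcnj16, 1.2% in Cacnb1 and 3.51% in Clcn7. The sequence around the remaining channel sites was not used here.

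Of the 143 protein-coding genes of the RefSeq table that fit the name rule, 44 had at least 1 site (30.8%, exact 95% interval 23.3% to 39.0%) and 99 had none. Over all 21900 protein-coding genes the share was 28.3%, so the channel genes lay near the background. Split by the length of the gene span, 8 of 45 channel genes under 20 kb had a site (17.8%, against 17.2% of all genes of that length). From 20 kb to under 100 kb, 20 of 53 had a site (37.7% against 38.5%). Among channel genes of 100 kb or more, 16 of 45 had a site (35.6%), where 50.3% of all genes of that length did. The share of channel genes with a site did not rise from the middle to the longest span class, whereas that of all genes did. The longest class holds only 45 channel genes, no interval is given for it, and the difference was not tested.

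**Figure D1:**
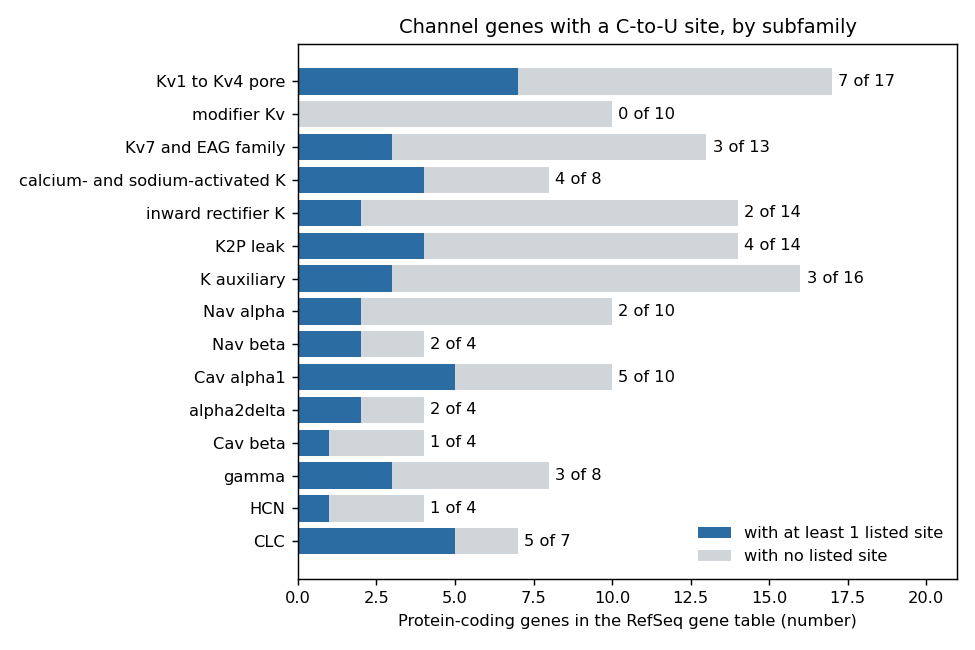
Number of protein-coding genes in each of 15 channel subfamilies of the RefSeq gene table, split into genes with at least 1 listed site (blue) and with none (grey). The CLC bar is the one in which most genes had a site (5 of 7), and the modifier Kv bar has 0 of 10.

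The number of members with a site varied between the subfamilies, which are small. Over all protein-coding genes 28.3% had a site. Span length was not taken into account in these counts, and differences between subfamilies were not tested. The CLC genes had a site in 5 of 7 members and the pore subunits of voltage-gated calcium channels in 5 of 10. Calcium- and sodium-activated potassium channels had 4 of 8, the pore subunits of the Kcna, Kcnb, Kcnc and Kcnd genes 7 of 17, and the gamma genes, several of which encode partners of AMPA receptors, 3 of 8. The 10 modifier genes (Kcnf, Kcng, Kcns and Kcnv), whose proteins join other potassium channel subunits and form no channel alone, had 0 sites. Inward rectifiers had 2 of 14 members with a site and potassium channel auxiliary subunits 3 of 16. Members counted here as absent include genes well known in cortical neurons, picked out after their values were seen: the sodium channel genes Scn1a and Scn3a, the M-current gene Kcnq3, the L-type calcium channel gene Cacna1c, the fast-spiking interneuron gene Kcnc2, and the auxiliary genes Kcnip4 and Kcnab1.

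Channel sites were edited at a median of 5.26% (quartiles 2.52% and 9.09%, n = 111 sites), where all listed sites had a median of 3.64% (2.01% and 6.90%, n = 17755). Among sites of 10% or more the order turned, with medians of 11.9% and 13.3%. Levels of 10% or more were reached by 23 channel sites (20.7%, exact 95% interval 13.6% to 29.5%) in 17 genes, against 14.9% of all sites. Levels of 20% or more were reached by 3 channel sites (2.7%) against 2.02% of all sites, and the highest channel level was 20.0% where the highest of the list was 94.9%. In all, 12 channel sites also lay in the span of another gene, whose reads can be confused with those of the channel gene. At the low end, 21 channel sites (18.9%) in 10 genes were under 2%, against 24.6% of the list, and 7 of the 21 belonged to Kcnk1. Averaged per gene first, the channel genes had a mean level of 7.64% ± 4.69 (SD across 44 genes), against 6.57% ± 5.28 (SD across 6929 genes). A thinly covered site can be listed only at a high level, so coverage may bear on each of these comparisons. The part of coverage in them was not tested.

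Genes with many sites had lower levels. The median gene mean was 8.24% in the 20 channel genes with 1 site, 7.68% in the 19 genes with 2 to 4 sites and 5.38% in the 5 genes with 5 or more. The same order held over the whole list, at 6.06%, 4.78% and 3.55%. Among all listed genes 49.2% had 1 site and 13.5% had 5 or more; among channel genes the shares were 45.5% and 11.4%. A low level can be listed only where many reads cover the site, so a gene with deep coverage can show more and lower sites; coverage is not in the list and its part in this order was not tested. Of the 23 sites at 10% or more, 7 were in genes with 1 site, 13 in genes with 2 to 4 sites and 3 in genes with 5 or more.

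**Figure D2:**
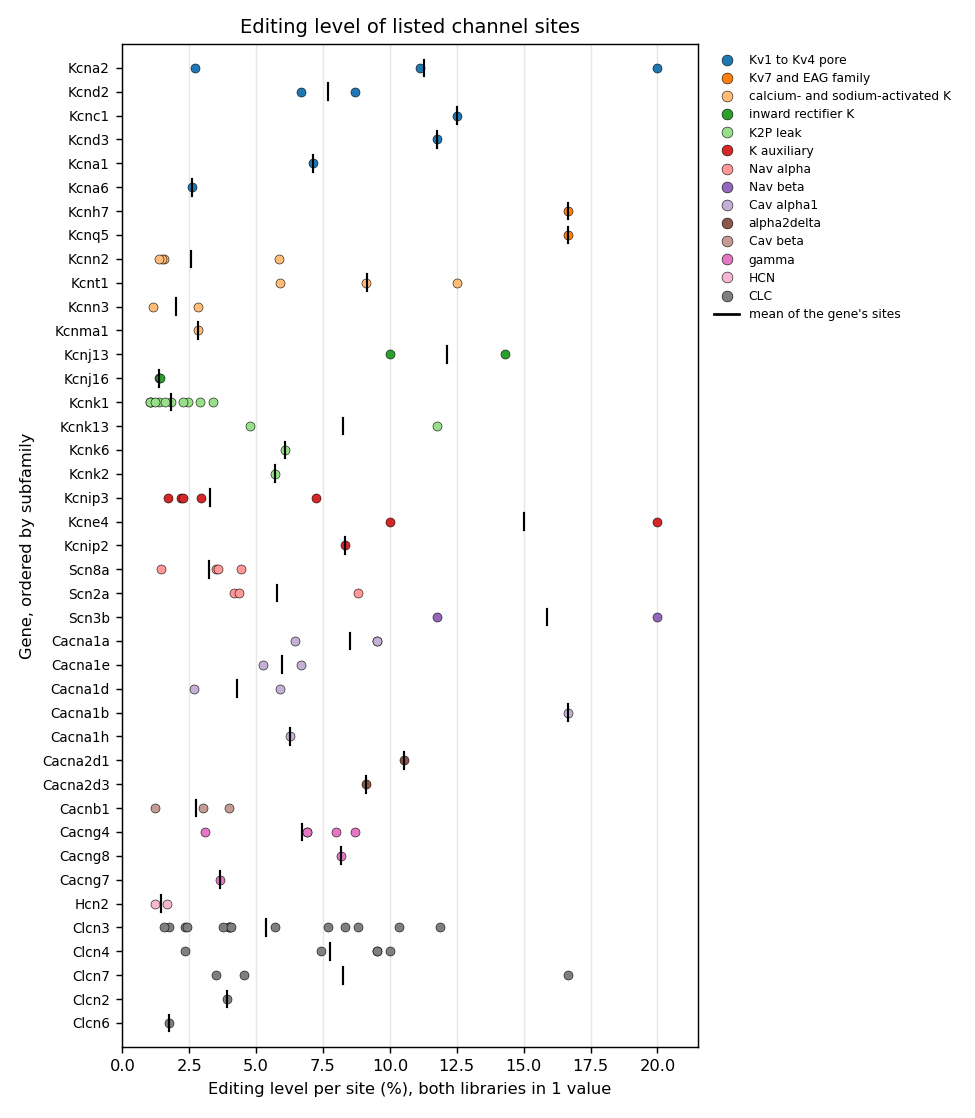
Editing level of 105 channel sites in 41 genes (points, %, 1 value for both libraries), by gene and coloured by subfamily, with the mean of each gene's sites as a vertical line. The 11 sites of Kcnk1 lie between 1.02% and 3.39%, while the single sites of Kcnh7 and Kcnq5 lie at 16.7%.

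Among pore-forming potassium channel genes of the voltage-gated group, most levels were above the list median, 11 of 13 sites in the Kcna, Kcnb, Kcnc and Kcnd genes. Kcna2, an axonal low-threshold channel (chromosome 3, 107090883 to 107115005), had 3 sites at 2.7%, 11.1% and 20.0%, at 3492, 8147 and 7736 nt from the end. Its high pair thus lay further from the end than its low site. The related gene Kcna1 had a single site at 7.14%. Kcna6 had one at 2.60%, which also lies in the span of Gm33581 on the other strand. Kcnc1, a fast delayed rectifier gene (chromosome 7, 46396219 to 46438706), had a single site at 12.5%, 5724 nt from the end.

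The A-type channel genes Kcnd2 and Kcnd3, whose channels give the fast transient current of dendrites, carried sites near their starts. In Kcnd2 (chromosome 6, 21215346 to 21729805) a site at 8.70% lay at base 1110 from an annotated start and a second site at 6.67% lay 2538 nt from the 3′ end, with 510812 nt between them. The single site of Kcnd3 (chromosome 3, 105451890 to 105674002), at 11.8%, was base 620 from an annotated start. That position also lies in the span of the antisense gene Kcnd3os, and how strand was used to assign reads is not given in the sources used here.

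Kcnq5 and Kcnh7 had a single site each and belong to the subfamily with the highest median level (16.7%) among the subfamilies with a site. That median rests on 3 sites, each the only one of its gene, and single-site genes also had higher levels over the whole list. Kcnq5 encodes a subunit of the M current, a slow potassium current that limits repetitive firing, and Kcnh7 encodes a channel of the ether-a-go-go-related group. The Kcnq5 site, at 16.7%, was base 553 from an annotated start, 562991 nt from the 3′ end (chromosome 1, 21398399 to 21962650). The Kcnh7 site, at 16.7%, was the opposite case, 301 nt from the 3′ end of a span of 490878 nt (chromosome 2, 62693410 to 63184287), where the span of Gca also runs on the other strand. In this subfamily 10 genes, Kcnq3 among them, had none.

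Calcium- and sodium-activated potassium channel genes covered a wide range. Kcnt1, a sodium-activated channel gene (chromosome 2, 25863791 to 25918273), had 3 sites at 5.88%, 9.09% and 12.5%. The lowest lay 114 nt from the 5′ end of the span and the higher ones 746 and 2001 nt from the 3′ end. Kcnn2 and Kcnn3 encode small-conductance channels of the after-hyperpolarisation. The 4 sites of Kcnn2 were at 1.37%, 1.48%, 1.55% and 5.86%. Of these, 3 lay at 125272 to 125531 nt from the end, inside 259 nt. The other, at 1.55%, lay at 486 nt, where the span of A330093E20Rik also runs. Kcnn3 (chromosome 3, 89520164 to 89672494) had sites at 1.16% and 2.82%. Kcnma1, the large-conductance channel gene, had a single site at 2.82%, 215771 nt from the end of a span of 712823 nt. Low levels thus prevailed in Kcnn2, Kcnn3 and Kcnma1, and each of these means (1.99% to 2.82%) was below the list median.

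The leak channel genes were dominated by Kcnk1, with 11 of the 15 sites of the subfamily. Kcnk1 encodes a weak K2P channel that is known from astrocytes as well as neurons (chromosome 8, 125993655 to 126030685, plus strand). Its levels ran from 1.02% over a median of 1.60% to 3.39%, with a mean of 1.83% ± 0.82 (SD across 11 sites). All 11 sites lay 107 to 996 nt from the 3′ end, and 10 of the 11 had another within 100 nt. The highest levels, 2.90%, 3.39% and 2.44%, were next to each other at 628, 639 and 657 nt, and the 4 sites nearest the end were between 1.02% and 1.37%. As many sites or more were found in 160 genes of the list. Kcnk13, whose channel is known from microglia, had 2 sites, at 4.76% at base 1313 from an annotated start and at 11.8% 1151 nt from the 3′ end. Kcnk6 had a single site at 6.06% and Kcnk2, a mechanically gated leak channel gene, one at 5.71%, 1897 nt from the end.

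Only Kcnj13 and Kcnj16 had sites among the 14 inward rectifiers considered. Kcnj16 encodes a subunit that pairs with the Kcnj10 product in glia (chromosome 11, 110968033 to 111027968), and its 2 sites were both near the floor of the list, at 1.37% and 1.39%. Kcnj13, best known from epithelia such as choroid plexus (chromosome 1, 87384577 to 87394729), had sites at 10.0% and 14.3% that lay 5 nt apart. Both also lie in the span of Gigyf2, a gene of the opposite strand, so whether their reads came from Kcnj13 is uncertain.

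Among potassium channel auxiliary subunits, Kcnip3 stood first by number and Kcne4 by level. Kcnip3 encodes a calcium-binding protein of A-type channels, also known as a transcriptional repressor (chromosome 2, 127456498 to 127522094, minus strand). Its 5 sites were at 2.94%, 2.20%, 7.25%, 2.27% and 1.71%, in order from 188 to 1811 nt from the end. All 5 were within the last 5 kb, and only the third exceeded 3%. Kcne4, which encodes a small inhibitory subunit, had sites at 20.0% and 10.0%, 196 nt apart, and both also lie in the span of Gm29536 on the other strand. Kcnip2 had a single site at 8.33%.

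Sodium channel genes carried 10 sites in 4 genes. Scn8a, the main sodium channel of mature axon initial segments and nodes (chromosome 15, 100869863 to 101045938), had 4 sites in 2 pairs. The nearer pair, at 4.44% and 3.51%, lay 30048 and 30070 nt from the 3′ end, and the farther pair, at 3.57% and 1.46%, at 43785 and 43872 nt. Scn2a, the channel of early axons and of dendrites (chromosome 2, 65620764 to 65767447), had 3 sites at 8.82%, 4.17% and 4.35% within 39 nt of each other, 2724 to 2763 nt from the end. The 2 alpha subunit genes thus differed in where they were edited, with 3 of 3 sites of Scn2a and 0 of 4 of Scn8a in the last 5 kb. The beta subunit gene Scn3b (chromosome 9, 40269216 to 40291618) had 2 sites at 20.0% and 11.8%, at 1113 and 1263 nt from the end.

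Calcium channel genes carried 21 sites in 11 genes at a median of 6.67%. Cacna1a, the P/Q-type pore of presynaptic terminals (chromosome 8, 84338631 to 84640251), had 3 sites at 9.52%, 9.52% and 6.45%, at 1457, 6703 and 125279 nt from the end; the first pair also lies in the span of Gm39212. Cacna1b, the N-type pore (chromosome 2, 24603860 to 24763200), had a single site at 16.7%, 75426 nt from the end. Cacna1e, the R-type pore, had sites at 5.26% and 6.67%, Cacna1d, an L-type pore, at 2.67% and 5.88%, and Cacna1h, a T-type pore, at 6.25%. The Cacna1d site at 5.88% also lies in the span of Gm52106 on the other strand. Of these 9 sites of pore subunit genes only 2, in Cacna1a and Cacna1h, lay in the last 5 kb.

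The auxiliary genes of calcium channels differed from each other in position. Cacna2d1 (chromosome 5, 15934264 to 16374511), whose protein binds gabapentin, had a site at 10.5%, 3835 nt from the end, and Cacna2d3 one at 9.09%, 395823 nt from the end of a span of 817833 nt. The 3 sites of the beta subunit gene Cacnb1 (chromosome 11, 98001508 to 98023034) were spread over 19233 nt, at 4%, 3.03% and 1.2% from the 3′ end towards the start, and the last also lies in the span of the ribosomal protein gene Rpl19 on the other strand. Cacng4, whose protein is a regulatory partner of AMPA receptors (chromosome 11, 107732357 to 107794706, minus strand), had 5 sites at 6.90%, 8.70%, 6.90%, 8% and 3.08%, in order from 859 to 1552 nt from the end. The nearest 4 thus lay in a narrow range of level and the farthest was the lowest. Cacng7 had a site at 3.64%. The site listed for Cacng8, at 8.16%, lay 3177 nt before the start of its span, and was the only one of the 111 outside the span of its gene. Hcn2, a pacemaker channel gene (chromosome 10, 79716634 to 79736108), had sites at 1.23% and 1.68%.

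The CLC genes held 25 of the 111 sites, and Clcn3 alone 15. Clcn3 encodes an exchanger of endosomes and synaptic vesicles (chromosome 8, 60910389 to 60983317, minus strand). Its levels ran from 1.54% over a median of 4.04% to 11.9%, with a mean of 5.38% ± 3.26 (SD across 15 sites), and 57 genes of the list had as many sites or more. Of these sites 12 lay 729 to 2553 nt from the 3′ end at a mean of 5.08% ± 3.03, and 3 lay 12489 to 12523 nt from it at 3.77%, 11.9% and 4.05%. No site was listed in the 9936 nt between the stretches. In a run of 276 nt, 8 sites had levels from 1.54% to 10.3%, with 1.74% and 10.3% at neighbours 6 nt apart and 4.04% and 4% at neighbours 2 nt apart.

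Clcn4, a close relative of Clcn3 (chromosome 7, 7282309 to 7300916, minus strand), had 5 sites at 9.52%, 7.41%, 10.0%, 9.52% and 2.35%, in order from 661 to 1887 nt from the end, with a mean of 7.76% ± 3.19 (SD across 5 sites). As in Cacng4 and Kcnip3, the site farthest from the end was the lowest of the 5. This did not hold in Kcnk1, whose lowest site (1.02%) lay 227 nt from the end, or in Clcn3, whose lowest (1.54%) lay at 1873 nt. Clcn7, the lysosomal exchanger gene (chromosome 17, 25133378 to 25162103), had 3 sites, at 3.51% near its start, 16.7% in the middle of the span at 10965 nt from the end, and 4.55% at 1920 nt. Clcn2, a plasma membrane channel gene expressed in glia and neurons, had a site at 3.92%, and Clcn6, a late endosomal exchanger gene, one at 1.74%.

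**Figure D3:**
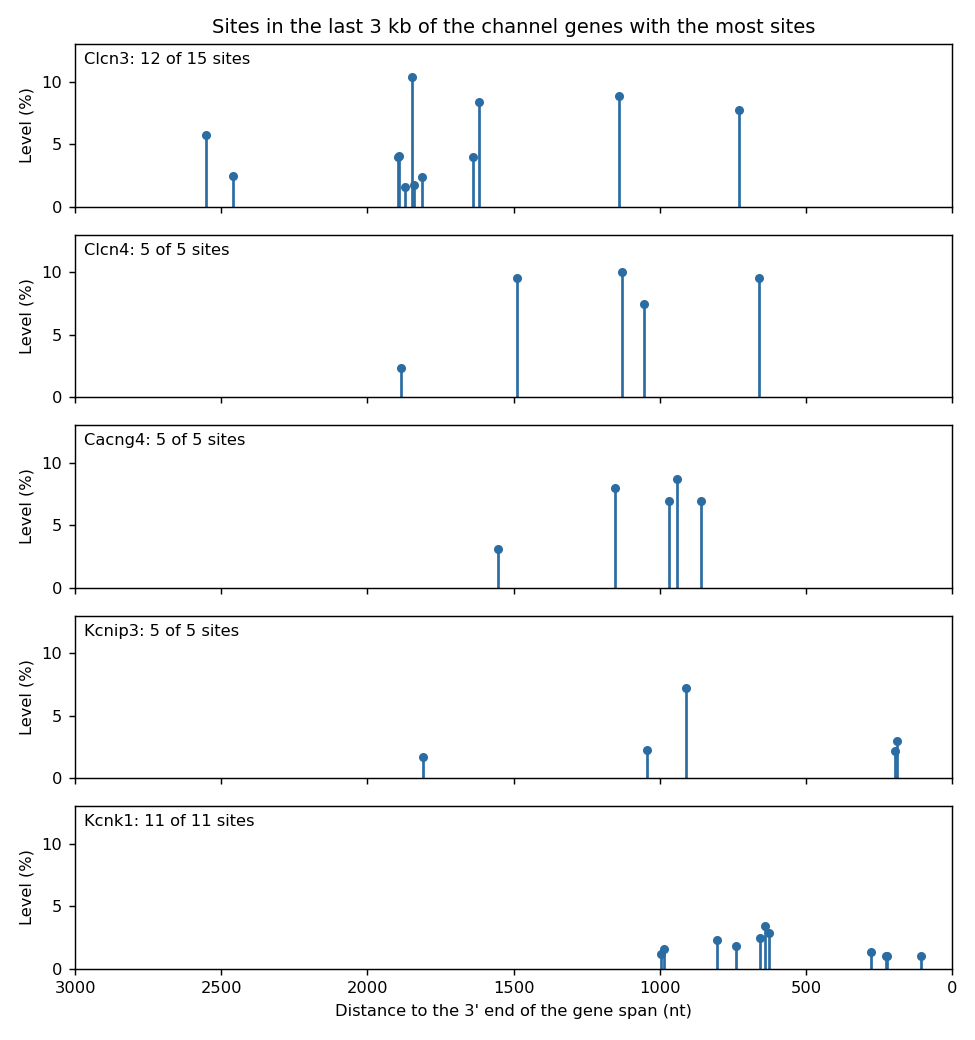
Editing level (%) of each site in the last 3 kb of the 5 channel genes with 5 or more sites, against the distance to the 3′ end of the gene span (nt, end at the right). Kcnk1 shows 11 low sites in its last 996 nt, while Clcn3 shows 12 sites of mixed level between 2553 and 729 nt.

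Counted over sites, 65 of the 110 channel sites inside their spans lay in the last 5 kb (59.1%, exact 95% interval 49.3% to 68.4%), against 49.7% of all listed sites inside spans. The order turned among sites of 5% or more (58.2% against 61.0%) and of 10% or more (56.5% against 66.0%). The share rested on few genes: without Clcn3 and Kcnk1 it was 50.0%, and as a mean over genes 44.9% (50.8% over all listed genes). By gene, 14 members had all their sites in the last 5 kb, 17 had none there and 12 had sites on either side. The stretch from 1 to 2 kb before the end held 28 channel sites of 13 genes (25.5%, against 13.8% of the list). These include the run of 8 Clcn3 sites within 276 nt, so this share too rested in part on 1 gene. The last 1 kb held 22 sites of 8 genes (20.0% against 16.1%), 11 of them in Kcnk1. More than 100 kb from the end there were 10 channel sites of 8 genes (9.09% against 5.78%), in Cacna1a, Cacna2d3, Kcnd2, Kcnd3, Kcnma1, Kcnn2, Kcnn3 and Kcnq5. Only spans over 100 kb can hold such sites. Spans of 100 kb or more were found in 45 of the 143 family genes, against 2429 of all 21900 protein-coding genes.

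**Figure D4:**
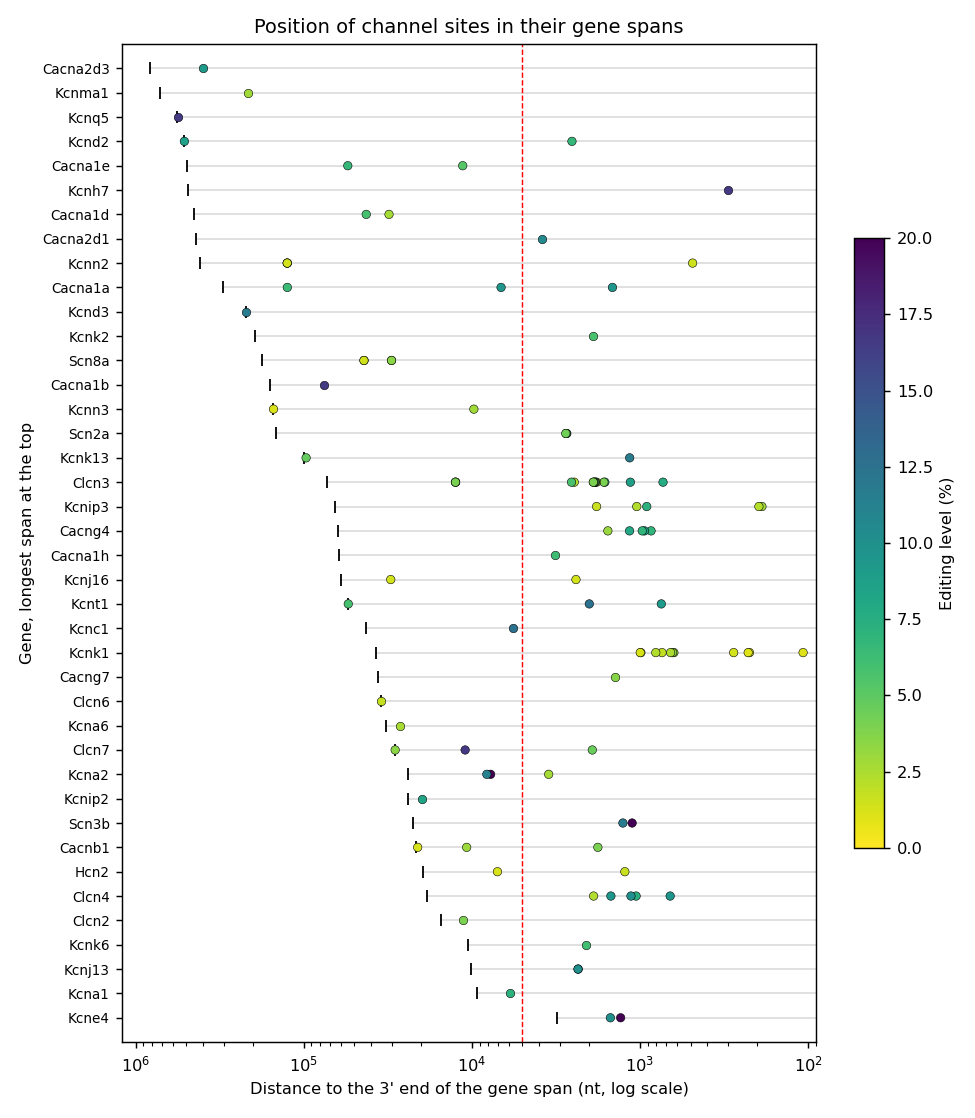
Distance of each channel site to the 3′ end of its gene span (nt, log scale, end at the right) for 40 genes with sites inside the span, longest span at the top. Black ticks mark the 5′ end of the span, the dashed line 5 kb and the colour the editing level (%). Sites of Kcnd2, Kcnd3 and Kcnq5 sit at the 5′ tick of spans over 200 kb.

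With all members counted, levels were not higher near the end, as they were over the whole list. The median channel level was 4.55% in the last 5 kb (n = 65 sites) and 5.26% outside it (n = 45), where the list gave 4.35% and 2.97%. The direction depended on the densest genes: without Clcn3 and Kcnk1 the medians were 7.08% and 5.56% (n = 42 sites each). Near the start, 9 of the 85 channel sites whose gene has an annotated start in the sequence table were within 1500 nt after it, in Clcn6, Kcnj16, Cacnb1, Clcn7, Kcnq5, Kcnd3, Kcnn3, Kcnd2 and Kcnk13. Of these 9 sites, those within the first 122 bases were at 1.2% to 3.51%, and those from base 553 to base 1313 at 1.16% to 16.7%. Kcnt1, which has no annotated start in the sequence table, had a site at 5.88% only 114 nt from the 5′ end of its span. Low levels near the start thus did not hold for all members.

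**Figure D5:**
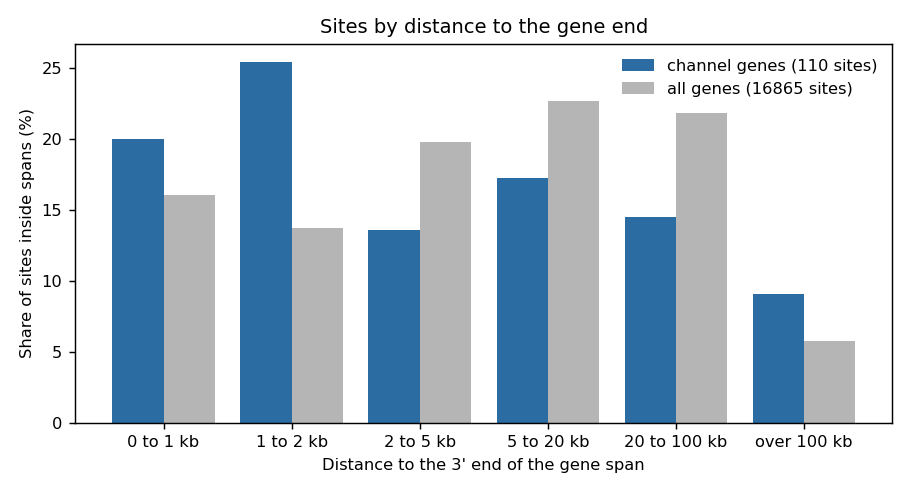
Share of sites inside gene spans (%) by distance to the 3′ end, for 110 channel sites (blue) and all 16865 listed sites inside spans (grey). The channel share is highest from 1 to 2 kb (25.5%), a band that includes a run of 8 Clcn3 sites, and the share over 100 kb is 9.09%.

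Sites of channel genes often lay next to each other. Of the 110 sites, 41 (37.3%, exact 95% interval 28.2% to 47.0%) had another site of the same gene within 100 nt, against 23.3% of the list. The interval treats sites as independent, which neighbouring sites are not, so it is too narrow. Among sites of 5% or more the shares were 12.7% and 13%. The 41 sites came from 9 of the 24 genes with 2 or more sites, and 23 of the 41 were in Clcn3 and Kcnk1. Without those genes the channel share was 21.4%, while the densest genes of the list were not left out of its 23.3%. The others were the 3 sites of Scn2a, the 4 of Scn8a, 3 of 5 in Cacng4, and a pair each in Clcn4, Kcnip3, Kcnn2 and Kcnj13.

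Of 40 further genes whose proteins bind or regulate these channels, 23 had a site (57.5%, 83 sites in all) and 17 had none. Over all protein-coding genes the share was 28.3%, and over those with spans of 100 kb or more it was 50.3%. The 40 genes were chosen with earlier results of these data known, and their span lengths were not matched. Whether partner genes carry sites more often than other genes was not tested. Akap9, a kinase-anchoring scaffold gene, had 13 sites at 1.96% ± 0.72 (SD across sites), with 0 in the last 5 kb. Nedd4, a ubiquitin ligase gene, had 11 at 4.23% ± 2.25, the axonal adhesion gene Cntn2 10 at 3.45% ± 2.12, the kinase gene Wnk1 10 at 3.34% ± 1.77 and Ywhah, a 14-3-3 protein gene, 7 at 5.36% ± 5.0. For the sodium leak channel complex, Unc79 had a single site at 20.0%, whereas Nalcn and Unc80 had 0 sites. Of the potassium channel partners Dpp6 and Dpp10, Dpp6 had a single site at 14.3% and Dpp10 had none.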

How the data were processed

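The authors deposited 1 list of C-to-U sites for both libraries, with chromosome, position, gene, strand and an editing fraction per site, which is given here as a percent. Per the series description the sites were found with the Bullseye pipeline, and per the submitters' processing notes the aligner was STAR 2.7.5 and the build mm10. How the pair of libraries was merged, and with which filters and coverage, is not given in the sources used here. Per the labels' protocols the libraries were made with a pico-input stranded kit for total RNA, while another label names polyA RNA.

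Gene names were matched to RefSeq genes of GRCm38.p6 by symbol or by a synonym of a single gene (6456 of 6929 names, 44 of 44 members). Start sites and strands came from the RefSeq start windows (250 bases before to 50 after), which hold 33 of the members; site and gene strand were the same in 33 of 33. Exons and UTRs were not used here. Distances run to the end of the gene span. Measures were tested on simulated data. Intervals are exact (Clopper-Pearson, 95%) and cover counting over sites or genes only. For shares of sites they treat sites as independent, although sites cluster in genes, so they are too narrow. Python 3.11.15, pandas 2.3.3 and scipy 1.17.1 were used. The members and lists were chosen with earlier results of these data known. Full values were given for members with 5 or more sites, the first 3 of each subfamily by number of sites, those with the 10 highest sites, those with 3 or more sites all on one side of the 5 kb limit, and up to 5 partners; any member could be named with its sites. Some members are counted in the totals but not reported by name here. Genes outside this rule, such as Unc79, Nalcn, Unc80, Dpp6 and Dpp10, were picked after their values were seen. Alternatives were minimum levels of 2%, 5% and 10%, other windows, pore-forming genes only and the omission of the densest genes.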

Additional observations from a re-analysis of the deposited data

How the results depend on the processing

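Of 40 recomputed values, 21 stayed within 1.5 times (counts) or inside the exact interval of the main value (shares and medians), and 19 moved further. The intervals over sites treat sites as independent, so this split is a rough guide only. The order against the whole list turned for the share in the last 5 kb at 5% and 10%, with pore-forming genes only and as a mean over genes (list 50.8%), for the share near another site at 5% and without Clcn3 and Kcnk1, and for the median at 10%. In the comparison without Clcn3 and Kcnk1 the list kept all its genes, its own densest ones included, so the 2 sides were not treated alike. At a minimum of 5% there were 56 sites, with a median of 9.09%, 12.7% of sites near another and 23.1% of family genes with a site. At 10% there were 23 sites in 17 genes, with a median of 11.9%, 8.70% near another and 11.9% of family genes with a site. These minimums remove sites by construction; over the whole list the median was 8.70% and 13.3%, the share near another was 13% and 8.67% at the same minimums, and of all protein-coding genes 17.7% and 8.61% had a site. The share of list sites in the last 5 kb was 61.0% and 66.0% there, while the channel share was 58.2% and 56.5%. Pore-forming genes only gave 63 sites in 28 genes with 47.6% in the last 5 kb. The median over gene means was 7.41% and over the highest site of each gene 8.70%. The share near the end was 45.5% with a window of 2 kb and 44.9% as a mean over genes. The share near another site was 19.1% within 20 nt, 52.7% within 500 nt and, without Clcn3 and Kcnk1, 21.4%. The last alternative and the family shares at other minimums were chosen after seeing the data. No paired analysis was possible because the list holds 1 value for both libraries, and for the same reason neither library could be left out.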
